A study of Mus musculus with 4 samples.

Results

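The genes described here are the ligands, receptors and latent binding proteins of the transforming growth factor beta (TGF-β) pathway, together with 1 matrix protein named for its induction by the pathway. They were taken by symbol and are 10 of the 32285 genes in the count matrices. The ligands are Tgfb1, Tgfb2 and Tgfb3, the signalling receptors Tgfbr1 and Tgfbr2, the co-receptors Tgfbr3 (betaglycan) and Eng (endoglin), the latent binding proteins Ltbp1 and Ltbp3, and the matrix protein Tgfbi.

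The cells were isolated from 2 leg muscles, gastrocnemius and tibialis anterior, of males that were 2 months old, and 4 mice of each genotype were pooled. The wild-type (WT) mice were S100GFPtg and the Sod1KO mice were S100GFPtg Sod1-/-, so both carried a GFP reporter under the S100B promoter, which is active in Schwann cells and also in other cells. Live cells of each pool were sorted by GFP, and the GFP+ and the GFP- cells gave 1 library each of droplet-based single-cell RNA sequencing from the 3' end of transcripts. The question was how the muscle-resident Schwann cells and their neighbours differ in mice that lack the antioxidant enzyme SOD1, a model of muscle denervation. With 1 library per group there is no spread between animals, so no test was possible, every comparison is between single libraries, and all intervals are 95% intervals that cover counting error only.

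TGF-β is secreted in a latent form, bound to its own propeptide, and latent binding proteins tether this complex to the extracellular matrix until it is activated. The active ligand brings together the type II receptor TGFBR2 and the type I receptor TGFBR1, both kinases, which phosphorylate SMAD proteins. Betaglycan presents ligand to these receptors, above all TGF-β2, and endoglin modulates signalling in endothelial cells. In muscle and nerve the pathway is known for its part in matrix production and scarring, and in the response of Schwann cells to nerve injury.

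Tgfbi, Tgfb2 and Ltbp1 were the genes whose levels differed most between the genotypes within single clusters of terminal Schwann cell-like (tSC-like) cells, so the windows before their transcription starts are shown. RefSeq's promoter table on GRCm38.p6 held windows for 8 of the 10 genes, 10 windows in all, and it had none for Tgfb3 and Tgfbr3. On this build the genes span chr13:56609586-56639359 (Tgfbi), chr1:186622787-186709697 (Tgfb2) and chr17:75005480-75392512 (Ltbp1). Each window below is the 250 bases before 1 annotated start, written 5′ to 3′ on the strand of the gene. Both strands were searched for the letters of 4 known elements, and capitals mark the matches. The GC box was searched as GGGCGG. The TATA box was searched as TATAAA. For the CRE, the element bound by CREB, the letters were TGACGTCA. For the AP-1 site they were TGACTCA. None of these letter strings contains another.
Tgfbi, chr13:56609336-56609585, plus strand: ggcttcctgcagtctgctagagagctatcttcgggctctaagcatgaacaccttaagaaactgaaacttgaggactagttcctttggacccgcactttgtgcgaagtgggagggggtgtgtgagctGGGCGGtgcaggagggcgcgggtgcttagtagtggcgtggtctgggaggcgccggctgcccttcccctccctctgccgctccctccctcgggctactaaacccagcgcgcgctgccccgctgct
Tgfb2, chr1:186705990-186706239, minus strand: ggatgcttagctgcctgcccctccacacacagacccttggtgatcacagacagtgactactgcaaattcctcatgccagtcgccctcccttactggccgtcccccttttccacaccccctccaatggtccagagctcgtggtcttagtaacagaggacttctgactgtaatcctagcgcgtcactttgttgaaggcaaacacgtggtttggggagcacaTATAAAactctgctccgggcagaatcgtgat
Ltbp1, chr17:75005279-75005528, plus strand: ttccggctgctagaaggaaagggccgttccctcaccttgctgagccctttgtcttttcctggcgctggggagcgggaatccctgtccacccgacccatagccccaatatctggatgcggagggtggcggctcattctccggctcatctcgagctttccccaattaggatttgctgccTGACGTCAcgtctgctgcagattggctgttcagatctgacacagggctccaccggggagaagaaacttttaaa

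The 3 windows hold different letters. That of Tgfbi has 1 GC box, at bases 124 to 119 before the start, and a GC content of 62.4%. Tgfb2 has a TATA box at bases 31 to 26 before its start and a GC content of 53.6%. In the first of 2 windows of Ltbp1 a CRE lies at bases 73 to 66 before the start, and the second window, at another annotated start, has none of the 4 motifs. For comparison, the window of Tgfb1 has 5 GC boxes and a GC content of 75.2%, against a median GC content of 52.4% over all 32851 windows. Of those windows, 32.7% hold a GC box, 12.4% a TATA box, 1.55% a CRE and 4.46% an AP-1 site. A match describes the letters of the window only.

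The 4 libraries had between 2052 and 7267 barcodes with median UMI counts between 6152.5 and 13825.5, and the WT GFP- library was the smallest and shallowest. After filtering and removal of doublets, 1638 to 5143 cells remained in the GFP- libraries and 4557 to 5925 in the GFP+ libraries, and pairs of libraries shared between 1 and 13 barcodes. Clustering without the 10 genes gave 36 clusters, of which 13 stayed unnamed and 11 classes were named from marker genes. Sod1 UMIs were present in every library. Its level was higher in the library labelled Sod1KO than in WT in GFP+, at 98.3 and 91.3 UMIs per 1e6 UMIs (CPM), and lower in GFP-, at 113 (111 to 116) and 123 CPM (119 to 128). Tags from the 3' end cannot check a deletion elsewhere in the gene, so all directions below are those of the libraries as labelled. A class was compared where both libraries held at least 25 of its cells, and levels are the CPM of UMIs summed over the cells of a class.

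**Figure D1:**
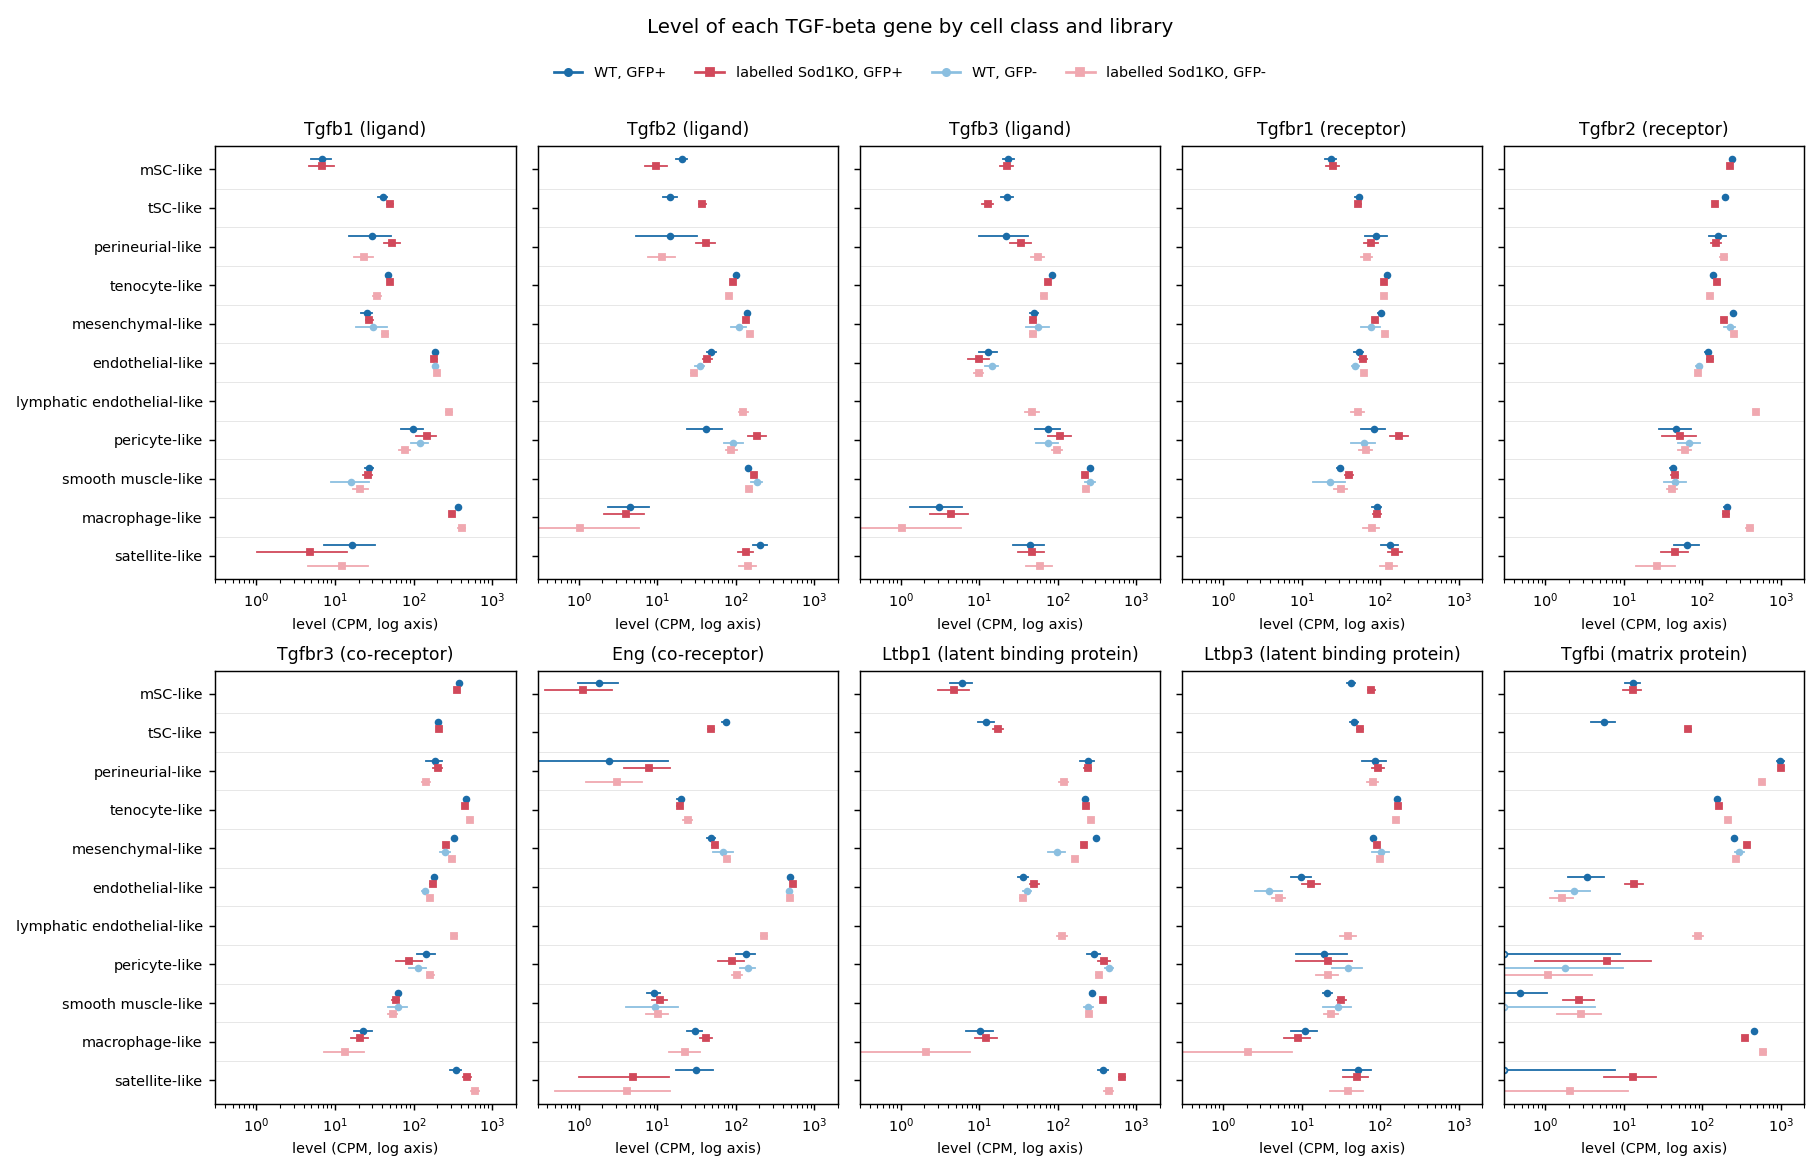
Level of each gene (x axis, CPM on a log axis) in each cell class (y axis) and library (colour and shape), with exact Poisson 95% intervals as lines; open symbols at the left edge stand for 0 UMIs, lines that reach that edge go on below it, and classes with under 25 cells in a library are not drawn. The classes with the highest levels differ from gene to gene, as for Eng in endothelial-like cells (482 to 540 CPM) and Tgfb3 in smooth muscle-like cells (223 to 257 CPM).

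The 3 ligands had their highest levels in different cells. Tgfb1, the ligand best known from immune and vascular cells, was highest in macrophage-like cells of the WT GFP+ library, at 368 CPM (345 to 392), followed by endothelial-like cells at 190 CPM, pericyte-like cells at 97.3 CPM and tenocyte-like cells at 47.8 CPM. The intervals of these first 4 classes did not overlap. The lower part of the order was less clear, since the intervals of each pair of neighbours from tenocyte-like down to myelinating Schwann (mSC)-like cells overlapped. Tgfb1 was at 40.3 CPM in tSC-like cells and at 6.77 CPM in mSC-like cells, 54.3-fold below macrophage-like cells.

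Tgfb2, a ligand known from development and from mesenchymal tissues, was highest in satellite-like cells (muscle stem cells) of WT GFP+, at 205 CPM (167 to 250). Smooth muscle-like cells at 144 CPM and mesenchymal-like cells at 138 CPM came next, with overlapping intervals, and tenocyte-like cells stood at 101 CPM. It was low in the Schwann-like classes, at 20.6 CPM in mSC-like and 14.6 CPM in tSC-like cells. The lowest class was macrophage-like, with 4.55 CPM from 12 UMIs.

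Among the named classes with at least 25 cells, Tgfb3 was highest in smooth muscle-like cells in every library. Smooth muscle-like cells had 254 CPM in WT GFP+, 223 in the GFP+ library labelled Sod1KO, 257 in WT GFP- and 225 in the GFP- library labelled Sod1KO. In WT GFP+ this was 3.02-fold the level of the next class, tenocyte-like cells at 83.9 CPM. The same library had 52.3% of its Tgfb3 UMIs in these cells, which made up 12.1% of it.

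The signalling receptors were spread more evenly than the ligands. Tgfbr1, the type I kinase, ranged 5.64-fold over the 10 classes of WT GFP+, from 23.6 CPM in mSC-like to 133 CPM in satellite-like cells. Tgfbr2, the type II kinase, ranged 5.79-fold, from 42.0 CPM in smooth muscle-like to 244 CPM in mesenchymal-like cells. mSC-like cells, at 237 CPM, did not differ from mesenchymal-like cells beyond counting error in Tgfbr2, although they were the lowest class for Tgfbr1. The GFP- library labelled Sod1KO was the only one with enough lymphatic endothelial-like cells, 107, and they had 485 CPM of Tgfbr2 (455 to 518), against 89.5 CPM in the endothelial-like cells of the same library.

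The co-receptors divided the classes. Tgfbr3 was highest in tenocyte-like cells of WT GFP+, at 470 CPM, and was 383 CPM in mSC-like, 344 CPM in satellite-like and 332 CPM in mesenchymal-like cells, while macrophage-like cells had 22.7 CPM. Eng marked endothelial-like cells, at 498 CPM in WT GFP+, 540 in the GFP+ library labelled Sod1KO, 482 in WT GFP- and 489 in the GFP- library labelled Sod1KO. In WT GFP+ pericyte-like cells came next with 134 CPM, followed by tSC-like cells with 74.4 CPM. mSC-like cells had only 13 UMIs of Eng, or 1.83 CPM. Of the UMIs of Eng in WT GFP+, 45.8% lay in the 6.65% of its cells that were endothelial-like.

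The latent binding proteins had their highest levels in different classes. Ltbp1 was highest in satellite-like cells of WT GFP+, at 377 CPM, and 5 further classes (mesenchymal-like, pericyte-like, smooth muscle-like, perineurial-like and tenocyte-like) lay between 222 and 305 CPM with overlapping intervals between neighbours. A gap of 6.15-fold separated them from endothelial-like cells at 36.0 CPM, and tSC-like, macrophage-like and mSC-like cells were at 12.2, 10.2 and 5.92 CPM. In the macrophage-like cells of WT GFP+, 1 cell held 51.9% of the Ltbp1 UMIs and 51.7% of those of Tgfbr3. Ltbp3 was highest in tenocyte-like cells, at 163 CPM, and these cells held 60.3% of its UMIs in WT GFP+ and 60.6% in the GFP+ library labelled Sod1KO, in which they were 13.2% and 21.6% of the cells. Unlike Ltbp1, Ltbp3 was higher in tSC-like (46.5 CPM) and mSC-like cells (42.5 CPM) than in smooth muscle-like cells (21.4 CPM).

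Tgfbi, a secreted matrix protein that binds collagen and integrins, had a range of at least 135-fold over the classes of WT GFP+, where Eng had one of 271-fold. It stood at 986 CPM in perineurial-like cells, the sheath cells of the nerve, at 461 CPM in macrophage-like, 257 CPM in mesenchymal-like and 156 CPM in tenocyte-like cells, and no pair of neighbours in this order overlapped. The next class, mSC-like cells at 13.0 CPM, was 12.0-fold below tenocyte-like cells. tSC-like cells of WT had 5.55 CPM from 35 UMIs, and pericyte-like and satellite-like cells of WT GFP+ had 0 UMIs. An unnamed cluster with Tenm2 and Lgals7 among its leading genes, which carried all 10 myelin markers and all 8 perineurial markers above the limits, had 629 CPM in WT GFP+ and 732 CPM in the GFP+ library labelled Sod1KO. The unnamed clusters together held 37.2% and 29.9% of the Tgfbi UMIs of these libraries.

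**Figure D2:**
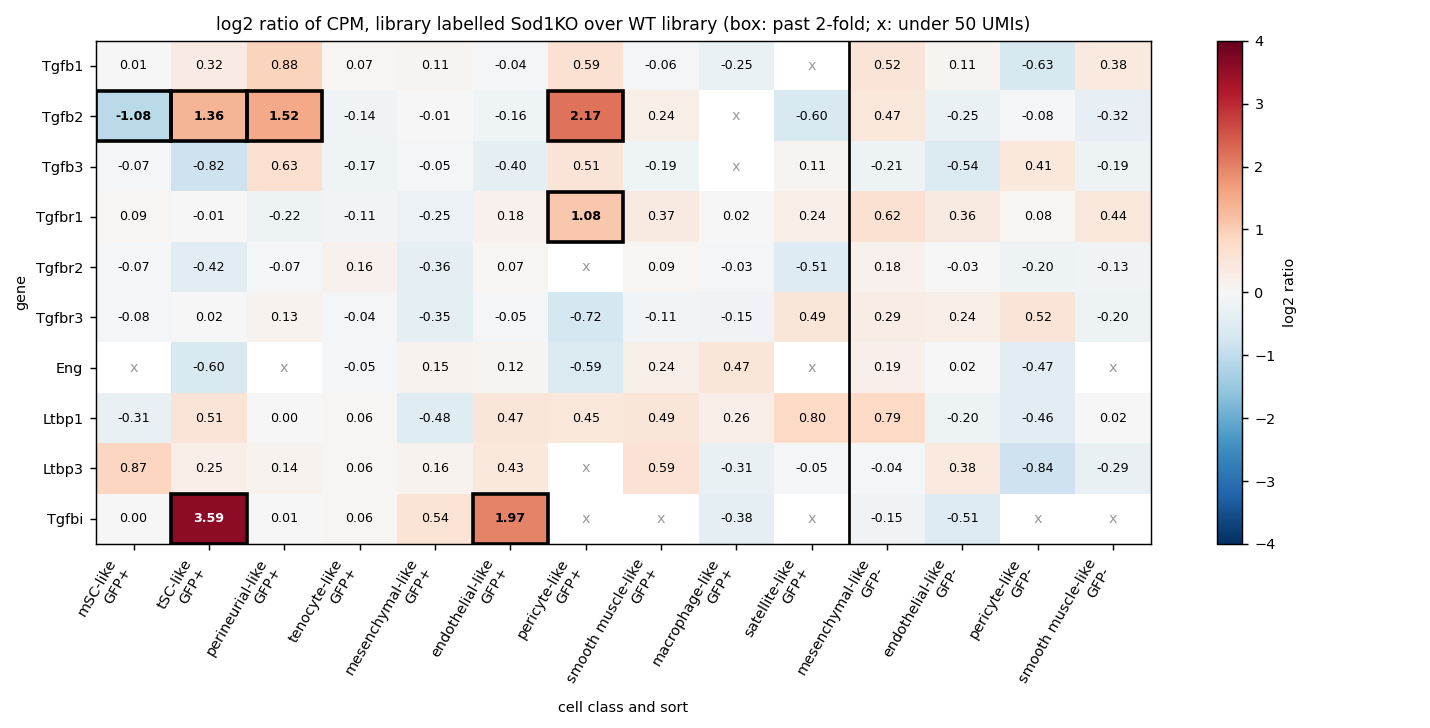
Log2 ratio of CPM, the library labelled Sod1KO over the WT library of the same sort (colour and printed value), for each gene (rows) in each class compared (columns, GFP+ left of the line and GFP- right of it); boxes mark ratios of 2-fold or more, and x marks genes under 50 UMIs in both libraries together. The 7 boxed values are all in the GFP+ sort, 4 of them in the Tgfb2 row.

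Between the genotypes, most of these genes differed by less than 2-fold. A gene was counted as past the fold where its CPM differed at least 2-fold (an absolute log2 ratio of 1 or more) and both libraries together held at least 50 of its UMIs in the class. Of 89 pairs of gene and class measured in the GFP+ sort, 7 were past it and 49 were higher in the library labelled Sod1KO. By class, 1.75% to 9.09% of all genes were past the fold in this sort and 41.5% to 56.0% were higher. Of 37 pairs in the GFP- sort, 0 were past it and 18 were higher, where by class 4.04% to 10.8% of all genes were past the fold and 44.4% to 51.9% were higher.

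The largest difference was that of Tgfbi in tSC-like cells. It had 35 UMIs in the 392 tSC-like cells of WT GFP+, or 5.55 CPM (3.87 to 7.73), and 732 UMIs in the 892 cells of the GFP+ library labelled Sod1KO, or 66.7 CPM (62.0 to 71.8), a log2 ratio of 3.59 (3.10 to 4.12). Tgfb2 was also higher, with 92 UMIs or 14.6 CPM in WT and 412 UMIs or 37.6 CPM in the library labelled Sod1KO, a log2 ratio of 1.36 (1.03 to 1.71). These were 2 of 10 genes past the fold, while 9.09% of the 11858 genes measured in the class were past it. The median log2 ratio was 0.14 over the 10 genes and -0.03 over all genes. The value of Tgfbi was -1.02, from few UMIs, without the clusters held mostly by 1 library, and that of Tgfb2 was as low as 0.72 over the alternatives.

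The other genes differed by less in this class, and not all in the same direction. Tgfb3 went from 22.5 to 12.8 CPM, a log2 ratio of -0.82 (-1.17 to -0.47), and Eng from 74.4 to 49.0 CPM, -0.60 (-0.79 to -0.42). The summed endothelial markers in these cells, all 9 of which were detected in both libraries, were also lower, at 357 CPM in WT and 142 CPM in the library labelled Sod1KO, and their part in the difference of Eng was not tested. Ltbp1 went from 12.2 to 17.4 CPM (0.51, 0.12 to 0.91), Ltbp3 from 46.5 to 55.4 CPM (0.25, 0.05 to 0.46), and Tgfb1 from 40.3 to 50.1 CPM (0.32, 0.10 to 0.54). Of the signalling receptors, Tgfbr2 was lower, at 194 CPM in WT and 145 CPM in the library labelled Sod1KO (-0.42, -0.53 to -0.31). Over the class, Tgfbr1 and Tgfbr3 had log2 ratios of -0.01 and 0.02 with intervals across 0, but Tgfbr3 differed in direction between the clusters described below.

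The tSC-like cells of the genotypes lay mostly in different clusters. A cluster led by Btc and Luzp2 held 64 of the 392 WT cells and 641 of the 892 cells labelled Sod1KO, and 1 led by Bche and Col20a1 held 288 and 134. Since 90.5% of the first cluster came from 1 library, it may be that library or that genotype and not a cell type. With 1 library per group these cannot be told apart. Within the Btc and Luzp2 cluster Tgfbi had 7 UMIs in WT (12.9 CPM, 5.17 to 26.5) and 692 in the library labelled Sod1KO (86.2 CPM, 79.9 to 92.9), a log2 ratio of 2.75 (1.70 to 4.07). Of the 7 UMIs in WT, 1 cell held 6. Within the Bche and Col20a1 cluster it had 26 UMIs (4.75 CPM) and 6 UMIs (2.68 CPM), a log2 ratio of -0.82 (-2.39 to 0.49). The higher level of Tgfbi was thus measured in the first cluster and not in the second. A smaller cluster led by Adgrl3 and Tenm3, with 88 cells of the library labelled Sod1KO, had 73.5 CPM of Tgfbi, and 1 led by Scn7a and Cadm2 had 2 UMIs in its 27 WT cells and 0 in its 29 cells labelled Sod1KO.

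Tgfb2 and Ltbp1, in contrast, were higher in the library labelled Sod1KO in both large clusters. Tgfb2 went from 16.5 to 40.4 CPM in the Btc and Luzp2 cluster, a log2 ratio of 1.29 (0.35 to 2.43), and from 12.6 to 23.2 CPM in the Bche and Col20a1 cluster, 0.88 (0.34 to 1.42). Ltbp1 went from 1 UMI, or 1.84 CPM, to 105 UMIs, or 13.1 CPM, in the first (2.83, 0.32 to 8.15) and from 12.4 to 30.4 CPM in the second (1.29, 0.79 to 1.80). The ratio of Ltbp1 over the whole class, 0.51, was below that in either cluster. In all, 3 of 10 genes were past the fold in the Btc and Luzp2 cluster, against 10.3% of all genes, and 1 of 9 in the Bche and Col20a1 cluster, against 2.18%. Eng, which was lower over the class, had 76.3 and 77.8 CPM in the Bche and Col20a1 cluster. Tgfbr3 had log2 ratios of 0.47 in the Btc and Luzp2 cluster and -0.39 in the Bche and Col20a1 cluster. In the same order, Tgfbr2 had -0.28 and 0.19, and Tgfbr1 had -0.23 and -0.29.

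**Figure D3:**
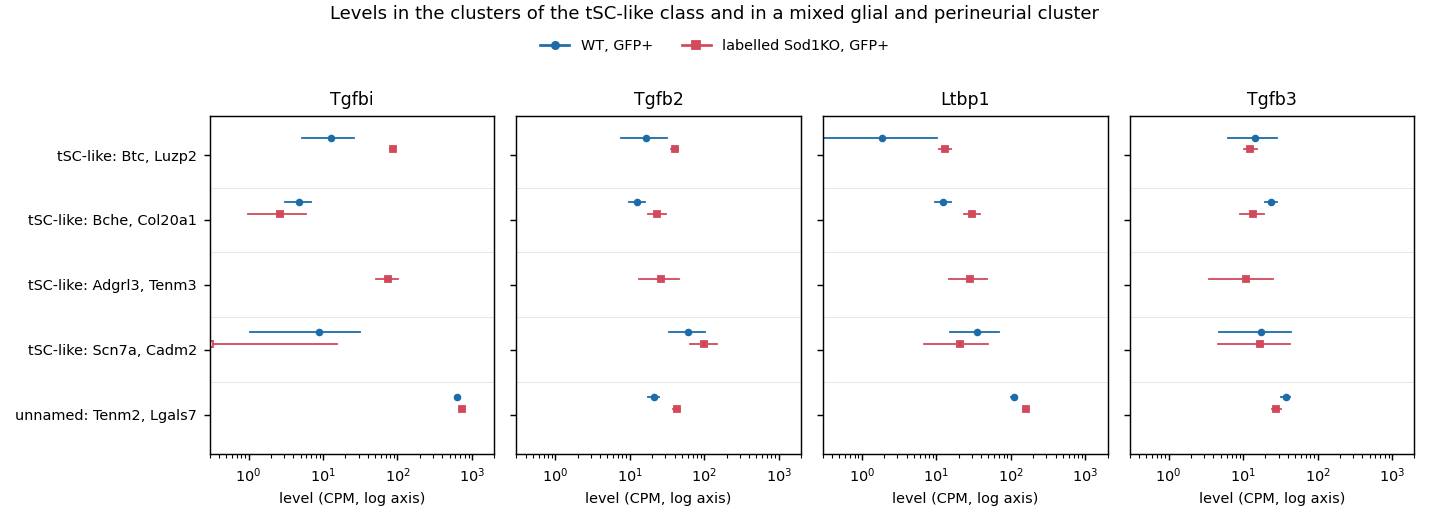
Levels (x axis, CPM on a log axis, lines are exact Poisson 95% intervals) of Tgfbi, Tgfb2, Ltbp1 and Tgfb3 in the 4 clusters of the tSC-like class and in the unnamed cluster with myelin and perineurial markers (y axis, named by leading genes), in the GFP+ libraries; open symbols stand for 0 UMIs. Tgfbi stands apart between the libraries in the Btc and Luzp2 cluster (12.9 and 86.2 CPM) but not in the Bche and Col20a1 cluster (4.75 and 2.68 CPM), while Tgfb2 and Ltbp1 are higher in the library labelled Sod1KO in both.

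Few tSC-like cells carried Tgfbi. It was detected in 13 of 392 WT cells (3.32%) and 173 of 892 cells labelled Sod1KO (19.4%), at median depths of 12370.5 and 9563 UMIs per cell. After each cell was thinned to 1000 UMIs, which left out 1 and 2 cells, the shares were 0.512% (0.062 to 1.84) and 4.49% (3.23 to 6.07). In smooth muscle-like cells, in which Tgfbi was close to 0, the thinned shares were 1 of 553 cells in WT (0.181%) and 0 of 393 cells in the library labelled Sod1KO, which allows up to 0.763% (3 cells of the total); the unthinned shares were 0.904% and 4.83% at medians of 21119 and 17421 UMIs. In the Btc and Luzp2 cluster of the library labelled Sod1KO, 149 of 641 cells had a UMI of Tgfbi, 19 cells held 50% of its UMIs and the top cell had 53.

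Cells with Tgfbi in this cluster were compared with those without it for markers of the classes in which Tgfbi was high. Macrophage markers summed to 11.5 CPM in the 149 cells with Tgfbi and 8.45 CPM in the 492 without, with 4 and 2 of 9 markers at 0. Perineurial markers summed to 119 and 62.5 CPM, mesenchymal markers to 824 and 659 CPM, and tSC markers to 3376 and 2761 CPM. These sums were higher in the cells with Tgfbi, which were also deeper (11278 against 9303 UMIs at the median), whereas mSC markers were lower, at 2340 against 3545 CPM. Over the class, perineurial markers summed to 82.8 CPM in WT and 78.2 CPM in the library labelled Sod1KO. Mesenchymal markers went from 365 to 622 CPM, and the tSC markers themselves from 5950 to 3472 CPM. The part of these markers in the level of Tgfbi was not tested. Haemoglobin UMIs were also higher, but 3 cells held 17161 of the 17348 such UMIs in the library labelled Sod1KO, and without cells of more than 5 haemoglobin UMIs the log2 ratio of Tgfbi was 3.60 and that of Tgfb2 1.36.

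The unnamed cluster with myelin and perineurial markers, which had 310 cells in WT GFP+ and 305 in the GFP+ library labelled Sod1KO, also had more Tgfb2. Its level went from 20.9 to 43.0 CPM, from 126 to 303 UMIs, a log2 ratio of 1.04 (0.74 to 1.35). This was 1 of 10 genes past the fold, against 6.77% of all genes in the cluster. Ltbp1 went from 109 to 160 CPM (0.55, 0.41 to 0.70) and Tgfb1 from 38.5 to 56.3 CPM (0.55, 0.31 to 0.79). Tgfbr2 was lower, at 185 and 149 CPM (-0.31, -0.44 to -0.19), and so was Tgfb3, from 226 to 197 UMIs (-0.42, -0.71 to -0.14). Tgfbi, detected in 309 of 310 and 303 of 305 cells, differed by a log2 ratio of 0.22 (0.16 to 0.28).

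mSC-like cells differed from the tSC-like cells in the direction of Tgfb2. In the 1073 WT cells it had 146 UMIs, or 20.6 CPM, and in the 657 cells labelled Sod1KO 43 UMIs, or 9.77 CPM, a log2 ratio of -1.08 (-1.60 to -0.58). It was 1 of 9 genes past the fold, against 1.75% of all genes, and the medians were -0.07 over these genes and -0.03 over all genes. Ltbp3 was higher, at 42.5 CPM in WT and 77.5 CPM in the library labelled Sod1KO (0.87, 0.64 to 1.10). The 2 receptors with high levels here, Tgfbr2 at 237 and 226 CPM and Tgfbr3 at 383 and 361 CPM, had ratios of -0.07 (-0.19 to 0.04) and -0.08 (-0.17 to 0.01). The direction of Tgfb2 depended on how cells were classed. Where each cell was classed by its own markers in place of its cluster, the log2 ratio was 0.10.

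Perineurial-like and pericyte-like cells had few cells, and their differences rest on few UMIs. In perineurial-like cells Tgfb2 had 6 UMIs in 44 WT cells (14.6 CPM) and 53 in 92 cells of the GFP+ library labelled Sod1KO (41.9 CPM), a log2 ratio of 1.52 (0.30 to 3.03), while the GFP- library labelled Sod1KO had 11.5 CPM in 109 cells. It was 1 of 9 genes past the fold, against 5.79% of all genes, and it was under the fold, at 0.62, in 1 of 8 alternatives. Tgfbi, the gene of highest level in this class, had 986 and 995 CPM, a log2 ratio of 0.01 (-0.15 to 0.18).

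Pericyte-like cells, the mural cells of capillaries, showed a difference in Tgfb2 and Tgfbr1 in the GFP+ sort. Tgfb2 had 17 UMIs in 42 WT cells (41.4 CPM, 24.1 to 66.2) and 61 in 50 cells labelled Sod1KO (187 CPM, 143 to 240), a log2 ratio of 2.17 (1.38 to 3.04), and 1 cell held 13 of the 61. Tgfbr1 had 34 UMIs (82.7 CPM) and 57 (174 CPM), a log2 ratio of 1.08 (0.44 to 1.73). They were 2 of 7 genes past the fold, against 6.26% of all genes, and the median was 0.51 over these genes and -0.06 over all genes. Tgfbr1 was under the fold in 4 of 8 alternatives, with a range of 0.55 to 1.11, and Tgfb2 in 1, at 0.35. In the GFP- sort, with 52 and 206 cells, Tgfb2 had 93.5 and 88.2 CPM (-0.08, -0.54 to 0.39) and Tgfbr1 61.7 and 65.4 CPM (0.08, -0.47 to 0.67). There 0 of 9 genes were past the fold, against 4.04% of all genes. The GFP+ pericyte-like cells of WT also had more summed endothelial markers, 895 CPM, than those labelled Sod1KO, 431 CPM. Of these markers, 0 of 9 were at 0 in either library. Smooth muscle markers were also lower in the library labelled Sod1KO, at 2313 CPM in WT and 1912 CPM there. Mesenchymal markers were higher, from 1039 to 1322 CPM, and so were macrophage markers, from 21.9 to 30.6 CPM. The part of all these markers in the differences of Tgfb2 and Tgfbr1 was not tested.

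Endothelial-like cells had nearly the same level of Eng in all 4 libraries, and their 1 gene past the fold was Tgfbi in the GFP+ sort. Tgfbi had 16 UMIs in 303 WT cells (3.45 CPM) and 62 in 302 cells labelled Sod1KO (13.5 CPM), a log2 ratio of 1.97 (1.16 to 2.87), where 2.26% of all genes were past the fold. In the GFP- sort it had 2.31 and 1.62 CPM (-0.51, -1.39 to 0.43), and 0 of 10 genes were past the fold, against 5.52% of all genes. The GFP+ difference lay in a cluster led by Plvap and Esm1, with 5 UMIs in 41 WT cells and 49 in 66 cells labelled Sod1KO, of which 1 cell held 24. Without that cluster the log2 ratio was 0.43. In the same cluster Tgfb2 went from 22.2 to 57.3 CPM (1.36, 0.74 to 2.03), and these were 2 of 10 genes past the fold, against 2.54% of all genes there.

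The endothelial-like clusters differed from each other in Tgfb2 more than the libraries did. A cluster led by Gkn3, with the arterial genes Sema3g and Hey1 among its leading genes, had 199 CPM of Tgfb2 in WT GFP+, 145 in the GFP+ library labelled Sod1KO, 115 in WT GFP- and 107 in the GFP- library labelled Sod1KO. The largest cluster, led by the capillary gene Gpihbp1, had 7.89, 8.02, 10.5 and 8.25 CPM in the same order. Every library thus had over 10-fold more Tgfb2 in the first, and the levels of the 2 clusters did not overlap. A cluster led by the venous genes Selp and Ackr1 had Eng at 761 CPM in WT GFP+, 825 in the GFP+ library labelled Sod1KO and 957 in the GFP- library labelled Sod1KO, above every other endothelial-like cluster compared. Tgfb2 in that cluster had 0 UMIs in the 28 WT GFP+ cells. Between the genotypes in GFP+, 1 of 7 genes was past the fold in the Gkn3 cluster, against 2.79% of all genes. It was 1 of 5 in the Selp and Ackr1 cluster, against 1.91%, and 0 of 6 in the Gpihbp1 cluster, against 2.07%. In GFP- it was 1 of 8 in the Gkn3 cluster, against 4.56%, and 0 of 8 in the Gpihbp1 cluster, against 5.09%.

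Mesenchymal-like cells, the fibroblasts and their progenitors, had 0 of 10 genes past the fold in either sort, against 3.17% of all genes in GFP+ and 10.8% in GFP-. Ltbp1 had 305 CPM in WT GFP+ and 218 CPM in the GFP+ library labelled Sod1KO (-0.48, -0.57 to -0.40), but 96.0 CPM in WT GFP- and 166 CPM in the GFP- library labelled Sod1KO (0.79, 0.44 to 1.16). The class was made of clusters with very different levels of Ltbp1. A cluster led by Pi16, a marker of progenitor-like fibroblasts, had 861, 681 and 616 CPM in WT GFP+ and in the GFP+ and GFP- libraries labelled Sod1KO, whereas a cluster led by Myoc had 122, 123 and 81.6 CPM there and 77.5 CPM in WT GFP-. Within the Myoc cluster the log2 ratios of Ltbp1 were 0.01 (-0.21 to 0.23) in GFP+ and 0.07 (-0.35 to 0.53) in GFP-. The share of the class in the Pi16 cluster differed between libraries, at 10.7% in WT GFP+ and 7.03% in the GFP+ library labelled Sod1KO. In GFP- it held 2 of the 42 cells of WT and 72 of the 854 labelled Sod1KO. Among the larger shifts in GFP+, a cluster led by Inmt went from 55.9% to 38.8% and a cluster led by Cxcl14 from 13.2% to 28.4%. Ltbp1 in the Cxcl14 cluster was higher in the GFP+ library labelled Sod1KO, with 155 UMIs in 80 WT cells and 792 in 315 cells labelled Sod1KO. The part of the clusters and their shares in the ratios of Ltbp1 over the class was not tested.

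Tgfbi differed in opposite directions in 2 of the mesenchymal-like clusters. In the cluster led by Cxcl14, with Apod among its leading genes, it had 150 CPM in 80 WT GFP+ cells, from 193 UMIs. The 315 cells of the GFP+ library labelled Sod1KO had 545 CPM from 1991 UMIs, a log2 ratio of 1.86 (1.65 to 2.08). The 86 cells of that cluster in the GFP- library labelled Sod1KO had 410 CPM, of which 1 cell held 33.2% of the UMIs. In the Pi16 cluster it had 124 and 54.1 CPM in GFP+, a log2 ratio of -1.20 (-1.58 to -0.83). Tgfbi was the 1 gene of 10 past the fold in each, against 6.41% of all genes in the Cxcl14 cluster and 2.52% in the Pi16 cluster. Over the class it went from 257 to 373 CPM in GFP+ (0.54, 0.46 to 0.62). The markers of perineurial cells, which had the highest Tgfbi of the GFP+ classes, summed to 157 CPM in the WT cells of the Cxcl14 cluster, with 1 of 8 at 0, and to 678 CPM in the GFP+ library labelled Sod1KO, with 0 at 0, and their part in this difference was not tested.

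**Figure D4:**
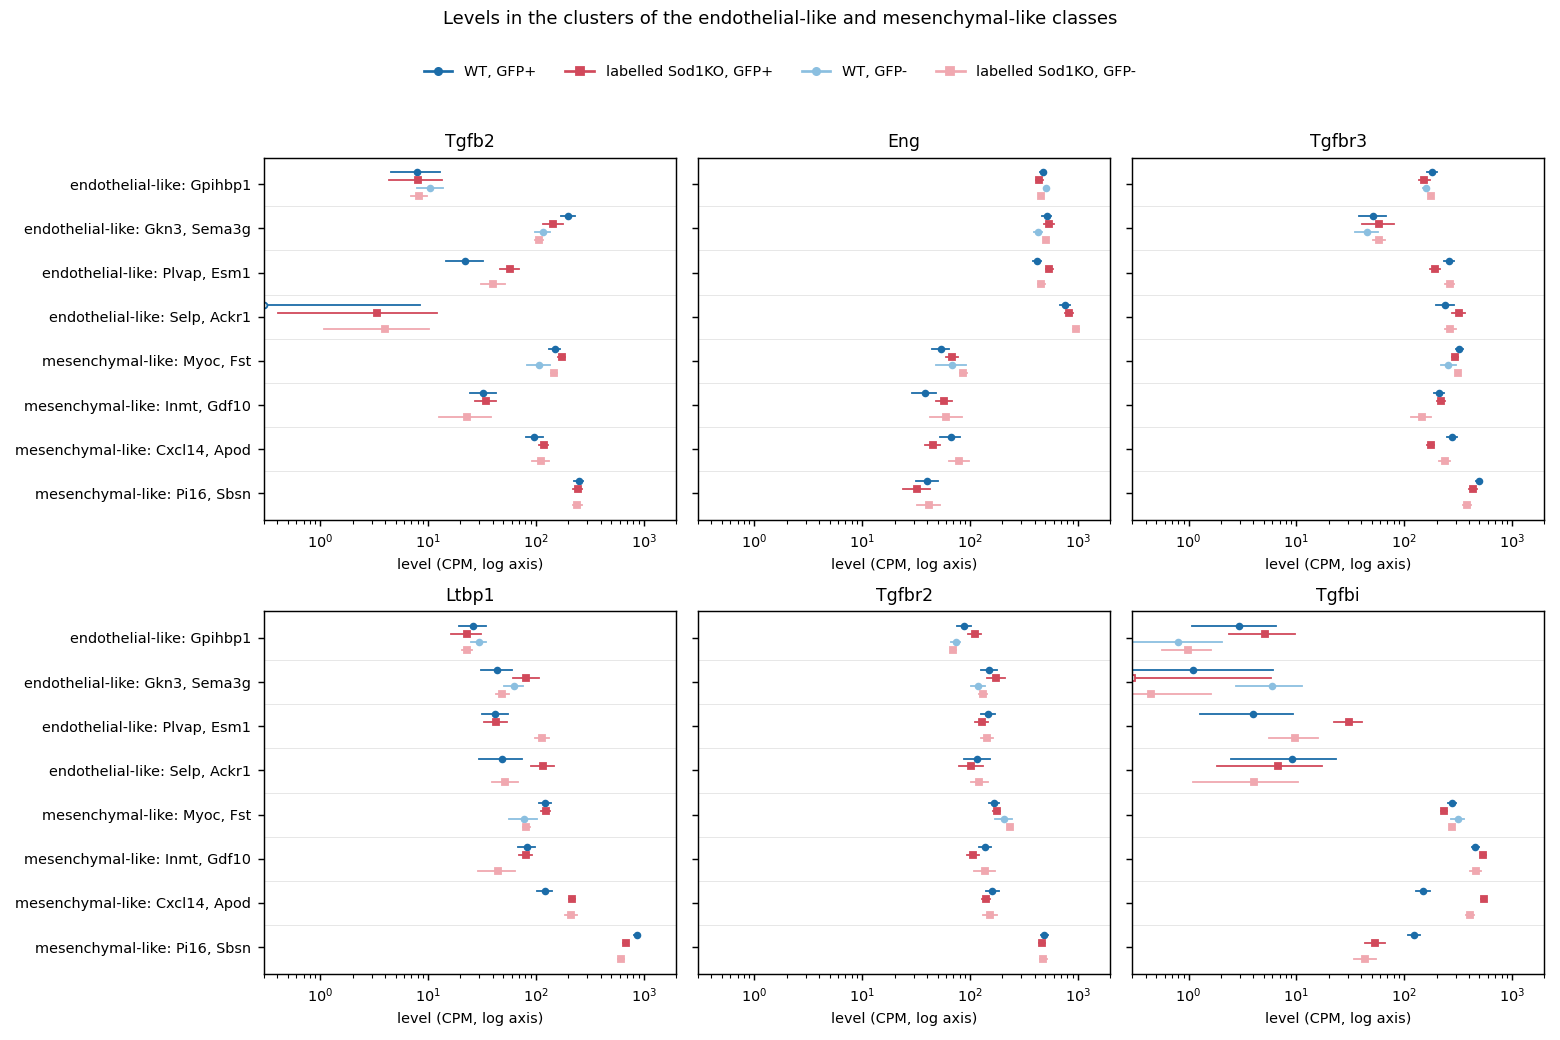
Levels (x axis, CPM on a log axis, lines are exact Poisson 95% intervals) of Tgfb2, Eng, Tgfbr3, Ltbp1, Tgfbr2 and Tgfbi in the clusters of the endothelial-like and mesenchymal-like classes (y axis, named by leading genes) in each library with at least 25 cells; open symbols stand for 0 UMIs. Tgfb2 is above 100 CPM in the Gkn3 cluster in every library and near 10 CPM in the Gpihbp1 cluster, and Ltbp1 is above 600 CPM only in the Pi16 cluster of those drawn.

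In smooth muscle-like, tenocyte-like, macrophage-like and satellite-like cells of the GFP+ sort no gene was past the fold, where 2.16%, 2.34%, 4.46% and 4.07% of all genes were, and the same held for smooth muscle-like cells of the GFP- sort, where 4.88% of all genes were. Ltbp1 in smooth muscle-like cells went from 272 to 381 CPM in GFP+ (0.49, 0.41 to 0.56) but from 244 to 248 CPM in GFP- (0.02, -0.19 to 0.24). Ltbp3 there went from 21.4 to 32.1 CPM in GFP+ (0.59, 0.33 to 0.85). All 10 genes in tenocyte-like cells had ratios between -0.17 and 0.16.

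Macrophage-like cells labelled Sod1KO had somewhat less of both genes that were high in them. Tgfb1 went from 368 to 309 CPM (-0.25, -0.38 to -0.12) and Tgfbi from 461 to 355 CPM (-0.38, -0.50 to -0.26) in GFP+. In satellite-like cells, with 37 and 57 cells, Ltbp1 went from 377 to 655 CPM (0.80, 0.54 to 1.06), Tgfbr3 from 344 to 484 CPM (0.49, 0.21 to 0.77) and Tgfb2 from 205 to 136 CPM (-0.60, -1.03 to -0.16).

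Tenocyte-like cells were not uniform in the pathway. A cluster led by Col22a1, with the tendon genes Scx and Thbs4, had 130 and 137 CPM of Tgfb1 in the GFP+ libraries and 96.6 CPM in the GFP- library labelled Sod1KO, against 25.4, 23.1 and 24.4 CPM in the cluster led by Wif1. Its Ltbp3, at 294, 294 and 215 CPM, was also above the 130, 132 and 156 CPM of the Wif1 cluster. Ltbp1 was the other way round, at 59.6, 73.9 and 124 CPM in the Col22a1 cluster and 266, 280 and 285 CPM in the Wif1 cluster. The order of the 2 clusters was the same in all 3 libraries for each of these genes.

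**Figure D5:**
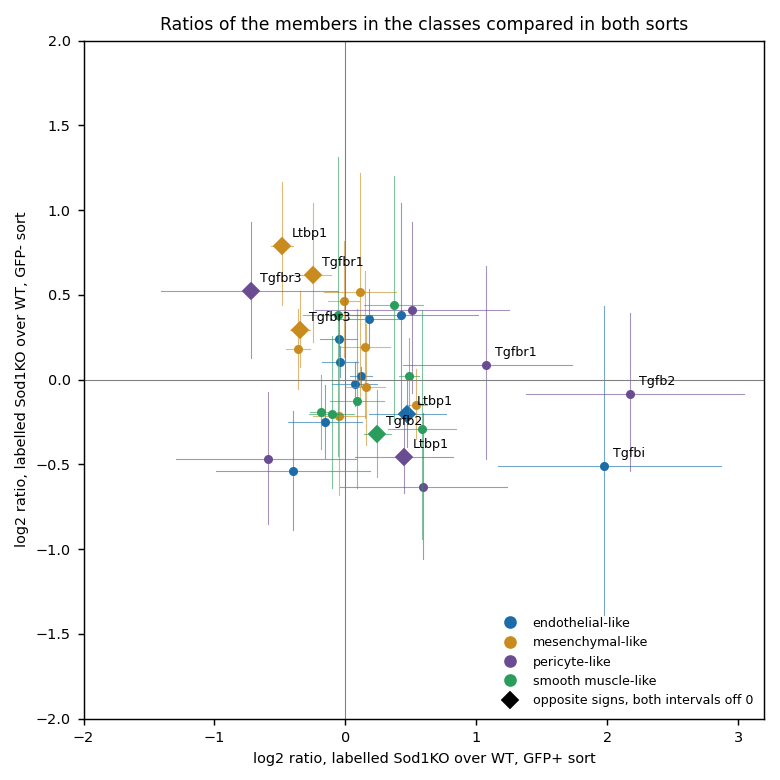
Log2 ratio, library labelled Sod1KO over WT, in the GFP+ sort (x axis) and in the GFP- sort (y axis) for the genes measured in both sorts in 4 classes (colour), with 95% counting intervals as lines. Diamonds mark 7 pairs of gene and class with opposite signs and both intervals away from 0. The values past the fold in GFP+ (Tgfb2 and Tgfbr1 in pericyte-like and Tgfbi in endothelial-like cells) lie near or below 0 in GFP-.

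In the 4 classes compared in both sorts, the directions of the 2 sorts often differed. The sign was the same for 5 of 10 genes in endothelial-like, 3 of 10 in mesenchymal-like, 3 of 7 in pericyte-like and 4 of 8 in smooth muscle-like cells. Over all genes measured in both sorts, the sign was the same for 66.0%, 57.4%, 52.9% and 60.5% in the same order of classes.

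Within a genotype, some genes also differed between the sorts. In endothelial-like cells labelled Sod1KO, 2 of 10 genes were past the fold between the sorts, against 7.88% of all genes. These were Tgfbi, at 13.5 CPM in GFP+ and 1.62 CPM in GFP-, a log2 ratio of GFP+ over GFP- of 3.06 (2.45 to 3.68), and Ltbp3, at 13.3 and 5.09 CPM (1.39, 0.92 to 1.85). Ltbp3 was also the 1 of 9 genes past it in WT, at 9.92 and 3.90 CPM (1.34, 0.63 to 2.09), against 5.49%. In macrophage-like cells labelled Sod1KO, 1 of 6 genes was past the fold. This was Tgfbr2, which had 201 CPM in GFP+ and 405 CPM in GFP-, a log2 ratio of GFP+ over GFP- of -1.01 (-1.19 to -0.82), where 12.1% of all genes were past the fold. Perineurial-like cells labelled Sod1KO had 3 of 9 genes past it, against 7.95% of all genes. They were Tgfb2, at 41.9 CPM in GFP+ and 11.5 CPM in GFP- (1.86, 1.16 to 2.60), Tgfb1, at 53.7 and 23.1 CPM (1.22, 0.68 to 1.77), and Ltbp1, at 239 and 118 CPM (1.02, 0.77 to 1.26).

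Tgfb2 in pericyte-like cells had opposite directions between the sorts in the genotypes. In those labelled Sod1KO it had 187 CPM in GFP+ and 88.2 CPM in GFP- (1.08, 0.63 to 1.52), while in WT it had 41.4 and 93.5 CPM (-1.18, -2.06 to -0.37). With Tgfbr1, at 174 and 65.4 CPM (1.41, 0.93 to 1.88), this made 2 of 8 genes past the fold among the cells labelled Sod1KO, against 9.94% of all genes, and 1 of 8 in WT, against 5.72%. In mesenchymal-like cells of WT, 1 of 10 genes was past it. The clusters above made up different shares of this class in GFP+ and GFP-, and their part was not tested. Ltbp1 had 305 CPM in GFP+ and 96.0 CPM in GFP- (1.66, 1.31 to 2.04), where 10.3% of all genes were past the fold. None of 10 genes was past it in mesenchymal-like cells labelled Sod1KO, nor of 9 in smooth muscle-like cells of either genotype, 10 in tenocyte-like and 6 in satellite-like cells, where 4.05%, 3.04% (labelled Sod1KO), 8.46% (WT), 2.53% and 4.30% of all genes were.

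The genes most like a member in their levels were searched among 12128 genes over the 33 groups of class and library, for the 3 members with the widest range of log2(CPM + 10) over these groups. For Tgfbi they were Sulf2, Rab3il1 and Qpct, with Pearson correlations of log2 levels of 0.929, 0.924 and 0.917. For Ltbp1 they were Ror1, Sobp and Npas2 (0.926, 0.877 and 0.875), and for Eng they were Ece1 and the endothelial genes Flt1 and Gpihbp1 (0.924, 0.911 and 0.907). These correlations describe the groups, which share libraries, and carry no test.

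A list of 57 other genes of the pathway, with 13 of activation and storage, 8 receptors and ligand traps, 13 of signalling and 23 targets, was compared in the same way. In tSC-like cells 48 were measured, of which 8 were past the fold upward and 2 downward in the library labelled Sod1KO, against 9.09% of all genes in either direction (4.19% upward and 4.90% downward). Among them were the protease inhibitor Timp1, at 3.49 and 18.2 CPM (2.38, 1.75 to 3.09), the collagen Col1a1, at 108 and 359 CPM (1.73, 1.61 to 1.85), Vim, an intermediate filament, at 890 and 2950 CPM (1.73, 1.69 to 1.77), and Plat, a plasminogen activator, at 15.6 and 44.7 CPM (1.52, 1.21 to 1.85). Htra1, a secreted protease, was lower, at 747 and 280 CPM (-1.42, -1.48 to -1.35). Mesenchymal markers, which went from 365 to 622 CPM in these cells, moved with Col1a1 and Vim, and their part in these differences was not tested. The listed genes were compared over the class only, and its cells lay mostly in different clusters in the 2 libraries. Within the Bche and Col20a1 cluster 2.18% of all genes were past the fold, and within the Btc and Luzp2 cluster 10.3%. The part of the clusters in these differences was not tested.

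In mSC-like cells 2 of 42 were past the fold upward, against 1.75% of all genes in either direction. They were Plat (1.46, 0.82 to 2.11) and Htra1 (1.05, 0.34 to 1.76), so Htra1 had opposite directions in the 2 Schwann-like classes. Tenocyte-like cells had 1 of 56, against 2.34% of all genes, the activin-binding Fst, which was lower (-1.62, -2.21 to -1.05). In endothelial-like cells of GFP+ 4 of 53 were past it, all upward, against 2.26% of all genes. Among them was the ligand-binding proteoglycan Dcn, from 27.2 to 86.3 CPM (1.67, 1.37 to 1.97), whereas in GFP- Dcn was lower (-1.03, -1.21 to -0.86). Dcn is also 1 of the 10 mesenchymal markers. Their sums in endothelial-like cells of WT and labelled Sod1KO were 1710 and 1759 CPM in GFP+ and 1731 and 1427 CPM in GFP-. Their part in the differences of Dcn was not tested. Macrophage-like cells had 7 upward and 6 downward of 43, against 4.46% of all genes. The largest difference there, that of Col1a1, rested on 1 WT cell, which held 5033 of the 5207 Col1a1 UMIs of the class in WT, and the library labelled Sod1KO had 362. Tenocyte markers in these macrophage-like cells summed to 358 CPM in WT and 71.5 CPM in the library labelled Sod1KO. Mesenchymal markers summed to 409 and 230 CPM, and the part of these markers in the downward count was not tested.

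The remaining counts are of genes past the fold upward and downward. In mesenchymal-like cells they were 2 and 1 of 56 in GFP+, against 3.17% of all genes, and 7 and 5 of 56 in GFP-, against 10.8%. Pericyte-like cells had 2 and 1 of 30 in GFP+, against 6.26%, and 2 and 3 of 41 in GFP-, against 4.04%. Smooth muscle-like cells had 6 and 1 of 54 in GFP+, against 2.16%, and 3 and 0 of 40 in GFP-, against 4.88%. They were 2 and 0 of 38 in perineurial-like cells, against 5.79%, 4 and 0 of 33 in satellite-like cells, against 4.07%, and 2 and 1 of 55 in endothelial-like cells of GFP-, against 5.52%.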

How the data were processed

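The values deposited by the authors are UMI counts per gene and cell, without normalization, in 4 filtered matrices, 1 per library. The submitters' processing notes name Cell Ranger 7.1.0, Seurat 4.30 and mm10; the methods section gives a different Cell Ranger version and the builds GRCm39 and GRCm38. The authors took out ambient RNA and doublets only later, so the deposited counts hold both. Here doublets were removed as described below, and ambient RNA was subtracted only in an alternative. Promoter windows and their coordinates come from RefSeq tables on GRCm38.p6, and the matrices hold no coordinates.

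Counts were analysed in Python 3.11.15 with leidenalg 0.10.2, igraph 0.11.9, scikit-learn 1.9.0, pandas 2.3.3, scipy 1.17.1 and numpy 2.4.6. Cells were kept with over 200 detected genes and a mitochondrial share of UMIs under 10%. Doublets were removed by a simulated-doublet score at 0.8% of cells per 1000 barcodes (210, 366, 27 and 287 cells in WT GFP+, Sod1KO GFP+, WT GFP- and Sod1KO GFP-). The 2000 most variable genes without the 10 genes described, 30 principal components and 20 neighbours gave Leiden clusters at resolution 1, with no batch integration. A marker counted where it exceeded 20 CPM and 2 times its mean elsewhere. Names required 3 markers and either 60% of the list or a marker among the 10 leading genes, and clusters that also met 60% of a second list, had more leading markers of another list or were shallow with no leading marker stayed unnamed. These naming limits were set after a look at the clusters. The classes were rebuilt here and can differ from the authors' own.

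Levels are CPM of summed UMIs with exact Poisson intervals, ratios have exact conditional binomial intervals and shares exact Clopper-Pearson intervals, all at 95%. For a share of 0 the limit is 3 counts of the total. UMIs of 1 cell are not independent of each other, and the intervals do not cover this. A count of 0 was set to 3 UMIs in ratios, and no ratio was given where both counts were at or under 3. Ratios were tested on simulated data. All 10 genes were compared in every class, and the text gives those values that were singled out after they were seen. Of the list of 57 other pathway genes, up to 6 with the largest ratio past the fold qualified in a class, and some of these are named. Values of 1 listed gene are not reported here. The 10 genes and all lists were chosen with earlier results of these data known. The alternatives tried changed the count minimum, the fold, the cell filter, doublet removal, the class rule, the scaling, ambient RNA and the clustering genes. Restrictions to single clusters and the removal of cells with haemoglobin UMIs were added after the data were seen.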

Additional observations from a re-analysis of the deposited data

Results flagged for a closer look

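In 7 of the 35 pairs of gene and class measured in both sorts, the log2 ratio (labelled Sod1KO over WT) had opposite signs in GFP+ and GFP-, with both counting intervals away from 0. Over all genes measured in both sorts of these 4 classes, 745 of 31636 (2.35%) met the same criterion, and 1.80% to 4.27% did by class. Counting intervals are narrower for genes with more UMIs, and the genes behind these percentages were not matched to the flagged genes in UMI number. Whether 7 of 35 is more than for genes with similar counts was therefore not tested. The difference between the sorts was not tested, since each group is 1 library. In mesenchymal-like cells the flagged genes were Ltbp1 (-0.48 in GFP+ and 0.79 in GFP-), Tgfbr1 (-0.25 and 0.62) and Tgfbr3 (-0.35 and 0.29). The WT GFP- library had only 42 mesenchymal-like cells, 33 of them in the Myoc cluster, and within that cluster the ratios of Tgfbr1 were -0.17 and 0.53 and those of Tgfbr3 -0.13 and 0.29. In pericyte-like cells they were Ltbp1 (0.45 and -0.46) and Tgfbr3 (-0.72 and 0.52), and in endothelial-like cells Ltbp1 (0.47 and -0.20). In smooth muscle-like cells it was Tgfb2 (0.24 and -0.32).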

How the results depend on the processing

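No paired analysis was possible because each group is 1 library and no result comes from a test. For the same reason no library could be left out. The 7 pairs past the fold in GFP+ became 2 with at least 200 UMIs, 12 with no minimum beyond the floor, 18 at 1.5-fold and 4 with classes from each cell's own markers. In GFP-, 0 became 4 at 1.5-fold, 4 without doublet removal, 3 with classes from each cell's own markers, 2 with the mean of per-cell CPM and 1 after subtraction of ambient RNA. The pairs higher in the library labelled Sod1KO went from 18 of 37 to 30 of 54 in GFP- without doublet removal. Other pathway genes past the fold numbered 49 in GFP+, 24 at 200 UMIs and 109 at 1.5-fold, and 23, 12 and 48 in GFP-.

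Among the 7 values past the fold, the direction reversed in 3 cases. Tgfb2 in mSC-like cells (-1.08) was 0.10 with classes from each cell's own markers. Tgfbi in tSC-like cells (3.59) was -1.02 without the clusters held mostly by 1 library and -0.82 in the Bche and Col20a1 cluster alone, and it ranged from -1.02 to 6.89 over the 8 alternatives. Tgfb2 ranged from 0.72 to 1.67 in tSC-like, 0.62 to 1.84 in perineurial-like and 0.35 to 2.29 in pericyte-like cells. Tgfbi in endothelial-like cells ranged from 0.38 to 2.4, and Tgfbr1 in pericyte-like cells, which fell under the fold in 4 of 8 alternatives, from 0.55 to 1.11. Over all 126 values, including those near 0, the sign changed in 30 with classes from each cell's own markers, in 24 with the mean of per-cell CPM, in 13 without doublet removal, in 8 with median-of-ratios scaling and in 4 to 5 with the other settings, and in 18 of 118 with the stricter cell filter. The causes were not tested.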

Other observations

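Small clusters held some of the highest levels of single genes. A tenocyte-like cluster led by Bmpr1b, a receptor for bone morphogenetic proteins, had 421 CPM of Tgfbr1 in WT GFP+, 433 in the GFP+ library labelled Sod1KO and 239 in the GFP- library labelled Sod1KO, and 932, 719 and 921 CPM of Tgfbr3. An mSC-like cluster with Fmn2 and Frmd3 among its leading genes had 1500 CPM of Tgfbr3 in 26 WT GFP+ cells and 892 CPM in 41 cells of the GFP+ library labelled Sod1KO. An unnamed cluster led by Bglap2 and Mmp13, genes known from bone-forming cells, had 39 cells in the GFP+ library labelled Sod1KO, with 252 CPM of Tgfb3, 326 CPM of Ltbp1 and 185 CPM of Ltbp3.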
